A study of Mus musculus with 13 samples.

Results

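The data described here ask whether a combined drug treatment acted on gene expression differently in R6/2 and in wild type mouse brain. For each gene the quantity of interest was the interaction, which is the treated minus untreated difference in R6/2 mice less the treated minus untreated difference in wild type mice, on the log2 scale. A positive interaction means that treatment moved the signal upward in R6/2 relative to wild type, and a negative one the reverse. All 13 of the 13 arrays entered, in 4 groups taken from the sample titles. These were 3 arrays of untreated wild type, 3 of wild type with the triple treatment, 4 of untreated R6/2 and 3 of R6/2 with the triple treatment. Each array measured RNA of a brain hemisphere on the Affymetrix MG-U74Av2 design, where sets of short probes report on each gene. Of its 12422 gene probe sets, 7453 were bright enough to be tested. Among these, 89 probe sets (1.19%) moved in opposite directions in the 2 genotypes by the strictest reading, in which no treated array overlapped an untreated one in either genotype. By the same reading 76 (1.02%) moved in the same direction.

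R6/2 mice carry exon 1 of the human huntingtin gene with an expanded CAG repeat, driven by the human promoter, and develop a fast and widespread brain disease. The triple treatment was tacrine at 2.7 mg/kg per day from 5 weeks of age, moclobemide at 10 mg/kg per day and creatine at 1% of a wet mash. The sample descriptions list these drugs for the untreated mice as well, and the titles decide here which mice count as treated. Of all samples, 1 untreated wild type one is labelled with its age at harvest (8 weeks). Neither sex nor pairing is given, and nothing says that each array is a separate animal, so the p-values measure the spread between these samples, which may be technical.

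Tacrine inhibits acetylcholinesterase and so prolongs the action of acetylcholine, moclobemide inhibits monoamine oxidase A and so slows the breakdown of serotonin and noradrenaline, and creatine is taken up and phosphorylated to buffer ATP. The expanded huntingtin fragment forms nuclear aggregates and is known to lower the transcripts of many neuronal receptors, synaptic proteins and signalling enzymes in striatum and cortex. In a hemisphere homogenate, fewer cells of a type and less RNA per cell cannot be told apart.

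The groups were not equally tight. The first principal component held 33.9% of the variance and set untreated R6/2 arrays 3 and 2 apart, with scores of 45.7 and 25.4 against 4.09 or lower in all other arrays. Residual SD was 0.252 to 0.380 on the untreated R6/2 arrays and 0.189 to 0.209 on the untreated wild type arrays. The estimate without those 2 arrays is given, in the comparisons that follow, for each gene whose interaction it moves by more than 1.5 times, and for several others. This does not cover the genes named at the end under Other observations. The wild type effect does not use those 2 arrays, so any change falls on the R6/2 effect, which can shrink by more than the interaction does. The control rows of untreated R6/2 arrays 2, 3 and 4 equalled 1.2 times those of 3 other R6/2 arrays in 66 of 66 rows within a tolerance of 0.05, so they gave no RNA quality measure of their own. The signal of the 18S ribosomal control also moved with treatment in wild type, at 28.2, 44.5 and 43.0 in untreated and 79.3, 70.9 and 128.1 in treated mice, and its part in the wild type treatment effects was not tested. All 20 annotated pan-neuronal markers were among the tested genes.

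No single gene's interaction passed adjustment over all probe sets. In limma, 0 of 7453 probe sets (0%) had an adjusted p under 0.05, and the smallest adjusted p was 0.305. An unadjusted p under 0.05 was found for 1003 probe sets (13.5%), of which 538 (7.22%) had a positive and 465 (6.24%) a negative interaction. Of these 1003, 947 had treatment estimates of opposite sign in the 2 genotypes, which a large difference between them largely fixes. With array medians aligned the split leaned further, to 632 positive of 991. The treatment effects taken alone gave 0 calls in R6/2 (0%, smallest adjusted p 0.246) and 0 in wild type (0%, smallest adjusted p 0.0522). An unadjusted p under 0.05 was found for 1262 probe sets (16.9%) in R6/2, of which 652 (8.75%) were higher and 610 (8.18%) lower with treatment. In wild type it was found for 769 (10.3%), with 417 (5.6%) higher and 352 (4.72%) lower. The median SE of an interaction was 0.26 log2, against 0.18 and 0.19 for the treatment effects in R6/2 and wild type, so single genes needed large differences to pass.

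Across the 7453 probe sets the treatment effects in the 2 genotypes, which share no array, were nearly unrelated. Pearson's r was -0.052 and Spearman's rho -0.0374 across probe sets, which are not independent replicates. Estimates of opposite sign were found for 3803 (51.0%). Treated and untreated arrays did not overlap in R6/2 for 789 probe sets (10.6%), 368 higher (4.94%) and 421 lower (5.65%). In wild type, where fewer arrays are compared, this held for 1622 (21.8%), 846 higher (11.4%) and 776 lower (10.4%). Without overlap in either genotype, 89 (1.19%) had opposite and 76 (1.02%) the same direction, 34 (0.456%) higher and 42 (0.564%) lower. Of the 89, 50 (0.671%) were higher in treated R6/2 and lower in treated wild type, and 39 (0.523%) the reverse.

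**Figure D1:**
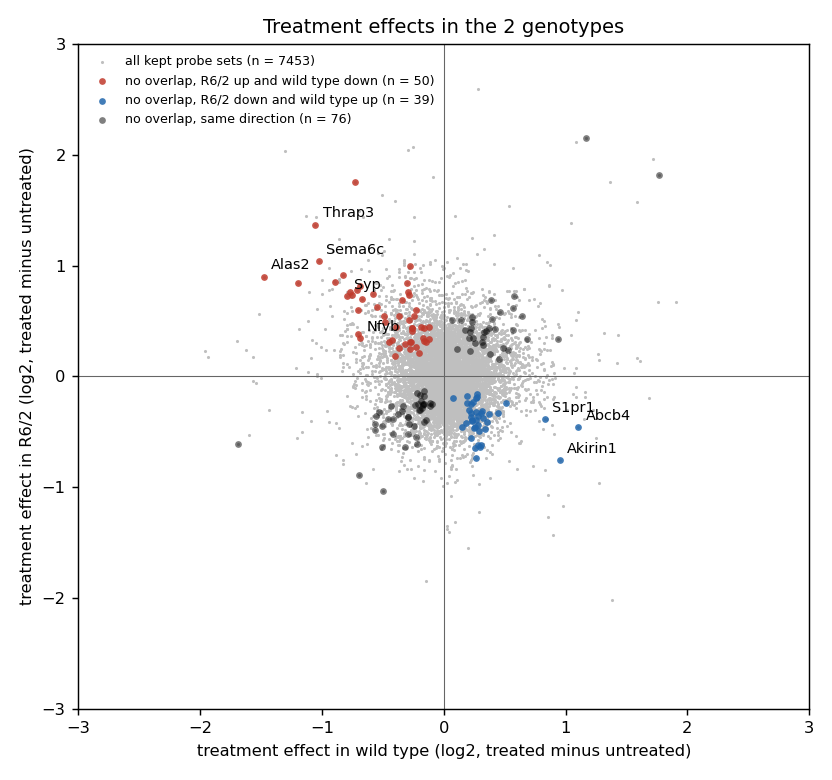
Treatment effect in wild type (x axis) against that in R6/2 (y axis), both as log2 treated minus untreated, for the 7453 tested probe sets (grey), with the probe sets whose treated and untreated arrays overlapped in neither genotype in colour. The 50 red points lie at upper left and the 39 blue points at lower right, and the 76 dark points of the same direction occupy the other quadrants in similar number.

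The gene with the smallest interaction p was Syp, which encodes synaptophysin, an abundant membrane protein of synaptic vesicles. Its signal was 572.8, 468.0 and 442.5 in untreated and 276.8, 311.1 and 264.8 in treated wild type mice. In R6/2 mice it was 240.7, 204.7, 119.7 and 273.8 untreated and 339.0, 333.8 and 320.0 treated. Treated wild type arrays thus all lay below the untreated ones, treated R6/2 arrays all lay above, and the treated arrays of the 2 genotypes came close to each other. The interaction was 1.52 ± 0.31 log2 (SE, adjusted p = 0.305 in limma), from 0.72 ± 0.21 in R6/2 and -0.79 ± 0.23 in wild type. Without untreated R6/2 arrays 2 and 3 it was 1.16, with an R6/2 effect of 0.37 in place of 0.72. Vamp2, which encodes the vesicle fusion protein synaptobrevin, had an interaction of 1.75 ± 0.47 on the probe set whose arrays did not overlap and 0.26 on its brighter probe set. The first fell to 1.21 without untreated R6/2 arrays 2 and 3, with an R6/2 effect of 0.31 in place of 0.86.

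Nfyb, a subunit of the CCAAT-binding factor NF-Y and next of the 12 positive interactions with the smallest p, read 154.7, 140.1 and 132.7 in untreated and 87.1, 96.5 and 81.4 in treated wild type mice. In R6/2 it read 95.9, 67.8, 81.7 and 98.1 untreated and 110.6, 116.5 and 98.3 treated. The treated R6/2 minimum of 98.3 only just cleared the untreated maximum of 98.1, while the wild type groups were well separated. Its interaction was 1.04 ± 0.21 log2 (SE, adjusted p = 0.305 in limma), and 0.85 without untreated R6/2 arrays 2 and 3. The R6/2 effect of Nfyb was 0.16 without those arrays, in place of 0.35. Atn1 encodes atrophin 1, a transcriptional corepressor whose own polyglutamine expansion causes a related disease. It read 237.6, 203.3 and 204.4 in untreated and 136.2, 144.4 and 115.2 in treated wild type, then 137.9, 84.0, 74.4 and 117.0 in untreated and 138.0, 138.4 and 182.5 in treated R6/2. Here too the R6/2 groups met at their edges, at 137.9 and 138.0, and the interaction was 1.31 ± 0.29. Leaving out untreated R6/2 arrays 2 and 3 gave 0.96, with an R6/2 effect of 0.26 in place of 0.60.

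Mef2c, an activity-dependent transcription factor of cortical neurons, read 193.1, 262.7 and 241.1 in untreated and 167.3, 144.6 and 161.5 in treated wild type. In R6/2 it read 110.8, 89.9, 74.0 and 121.5 untreated and 160.6, 152.4 and 139.2 treated. Both genotypes were without overlap, and the treated arrays of both lay within 139.2 to 167.3. The interaction was 1.18 ± 0.24 on this probe set and 0.36, 0.95 and 0.38 on the other 3 probe sets of the gene, all positive. On this probe set the R6/2 effect was 0.63, and 0.375 with untreated R6/2 arrays 2 and 3 left out. Thrap3, a splicing and transcription cofactor, had the largest interaction of the 24 leading genes at 2.42 ± 0.53. Its R6/2 effect was 1.37, and 1.38 with untreated R6/2 arrays 2 and 3 left out. Its signal was 113.9, 115.7 and 120.0 in untreated and 31.0, 64.7 and 88.0 in treated wild type, and 20.2, 50.9, 22.4 and 55.1 in untreated and 77.1, 89.5 and 94.5 in treated R6/2. The second Thrap3 probe set gave 0.08, so the 2 probe sets of this gene do not show the same thing.

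Usp22, the ubiquitin protease of the SAGA coactivator complex, had an interaction of 1.49 ± 0.33 and no overlap in either genotype. With untreated R6/2 arrays 2 and 3 left out the interaction was 1.05, and the R6/2 effect 0.29 in place of 0.73. Untreated wild type averaged 284.3 ± 25.9 (SD, n = 3) and treated wild type 170.1 ± 31.8 (SD, n = 3), while untreated R6/2 averaged 149.4 ± 51.8 (SD, n = 4) and treated R6/2 238.2 ± 31.4 (SD, n = 3). Phc2, a Polycomb group protein, had an interaction of 1.72 ± 0.38, with R6/2 groups that overlapped between 33.7 and 34.4. Nucks1, a nuclear phosphoprotein, was at 1.53 ± 0.36 on 1 probe set and -0.26 on the other. Thrb, the thyroid hormone receptor beta, differed from the genes above in that its interaction of 2.10 ± 0.49 came almost wholly from wild type. It read 42.0, 46.7 and 43.2 in untreated and 11.5, 12.4 and 10.7 in treated wild type, while in R6/2 the untreated range of 14.1 to 51.3 enclosed the treated range of 26.5 to 39.8. The remaining 3 of the 12 were Dpp6, an accessory subunit of Kv4 potassium channels, at 1.03 ± 0.23, Sema6c, a membrane-bound semaphorin, at 2.07 ± 0.49, and Snn (stannin) at 1.36 ± 0.33. Their R6/2 effects were 0.54, 1.04 and 0.695 in this order. With untreated R6/2 arrays 2 and 3 left out they were 0.38, 0.72 and 0.28.

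**Figure D2:**
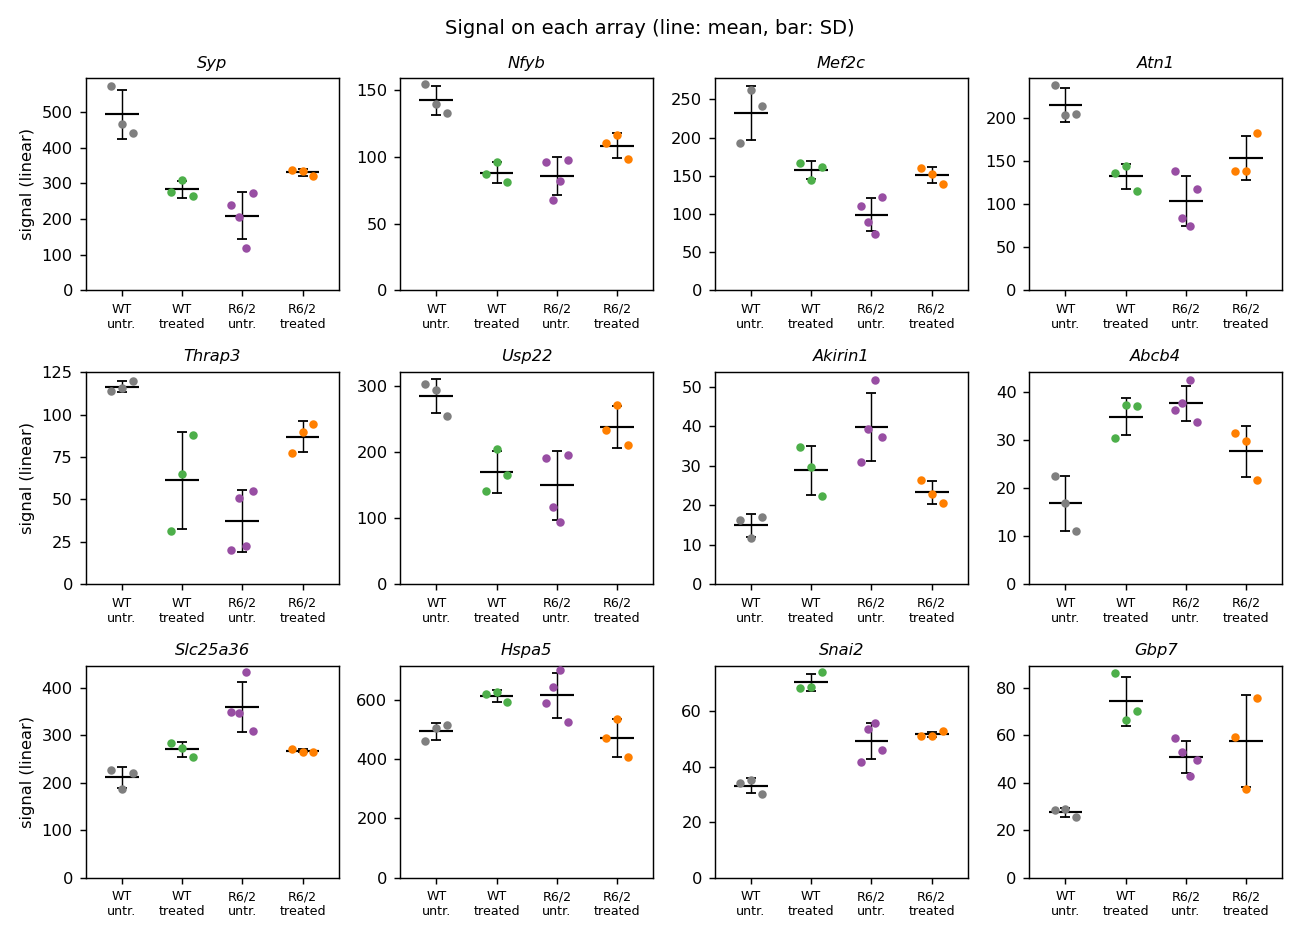
Signal on each array (linear scale, y axis from 0) for 12 genes in untreated and treated wild type and R6/2 mice, with the group mean as a line and the SD as a bar (n = 3, and 4 in untreated R6/2). From Syp to Usp22 untreated wild type is the highest group and untreated R6/2 the lowest, and from Akirin1 to Slc25a36 this order is turned over.

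The negative interactions were smaller in fold for the bright genes. Slc25a36, a mitochondrial carrier of pyrimidine nucleotides, read 227.3, 186.1 and 221.3 in untreated and 283.2, 273.1 and 253.0 in treated wild type. In R6/2 it read 348.3, 346.3, 433.0 and 309.6 untreated and 271.8, 265.1 and 265.2 treated. Neither genotype had overlap, and the treated arrays of both lay together between 253.0 and 283.2. The interaction was -0.77 ± 0.18 log2 (SE, adjusted p = 0.305 in limma), and -0.65 without untreated R6/2 arrays 2 and 3. Txndc9, a thioredoxin domain protein that binds the chaperonin CCT, had -0.71 ± 0.18 and likewise no overlap, at 82.8, 85.5 and 80.7 against 101.9, 106.8 and 113.2 in wild type and at 106.0, 121.7, 130.6 and 110.2 against 91.3, 82.0 and 104.4 in R6/2. Rabggtb, a subunit of the enzyme that attaches lipid anchors to Rab proteins, had -0.81 ± 0.22.

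Hspa5, which encodes BiP, the main chaperone of the endoplasmic reticulum, read 462.4, 505.0 and 516.6 in untreated and 620.4, 627.3 and 591.3 in treated wild type. In R6/2 it read 591.0, 644.3, 699.5 and 524.2 untreated and 469.7, 534.7 and 408.2 treated. The wild type groups did not overlap, and the R6/2 groups overlapped between 524.2 and 534.7. The interaction was -0.70 ± 0.18, from -0.39 ± 0.12 in R6/2 and 0.31 ± 0.13 in wild type. Zbtb16, the zinc finger repressor PLZF, was at -0.97 ± 0.24.

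Akirin1 and Abcb4 had the largest negative interactions among genes without overlap in either genotype, and both are dim. Akirin1, a nuclear cofactor, read 16.2, 11.6 and 16.9 in untreated and 34.7, 29.6 and 22.3 in treated wild type, and 30.9, 39.2, 51.7 and 37.3 in untreated and 26.3, 22.8 and 20.6 in treated R6/2. Its interaction was -1.71 ± 0.36 there and 0.20 on its second probe set, which does not show the pattern. Abcb4, a phospholipid transporter best known from bile, read 22.5, 16.8 and 11.1 in untreated and 30.3, 37.2 and 37.0 in treated wild type, and 36.3, 37.7, 42.5 and 33.8 in untreated and 31.4, 29.8 and 21.6 in treated R6/2. Its interaction was -1.56 ± 0.36. S1pr1, a receptor for sphingosine 1-phosphate, was at -1.21 ± 0.37.

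Several of the 12 leading negative interactions came from wild type with little difference in R6/2. Snai2, the zinc finger repressor Slug, read 34.3, 35.2 and 30.1 in untreated and 68.5, 68.8 and 74.2 in treated wild type. In R6/2 it read 41.7, 53.6, 55.7 and 46.2 untreated and 51.3, 51.1 and 52.9 treated. All R6/2 arrays thus lay between the wild type groups, and the treatment effect was 1.09 ± 0.16 in wild type and 0.08 ± 0.15 in R6/2. Gbp7, an interferon-induced GTPase, read 28.4, 29.0 and 25.4 in untreated and 86.2, 66.4 and 70.4 in treated wild type, against 58.9, 53.1, 42.7 and 49.5 in untreated and 59.4, 37.4 and 75.9 in treated R6/2. Its interaction was -1.30 ± 0.32, and the R6/2 groups overlapped throughout. Tex2 (-1.41 ± 0.34), Rag1 (-1.88 ± 0.49) and Uhmk1, a serine/threonine kinase (-1.54 ± 0.38), also had larger treatment effects in wild type, of 1.58, 1.68 and 1.15, than in R6/2. For Uhmk1 the other 2 probe sets were at 0.18 and 1.76, against the sign of the one named. Strbp, an RNA-binding protein, was the reverse case: it was at 155.0, 235.8, 273.2 and 199.6 in untreated and 115.3, 125.3 and 130.5 in treated R6/2, while the wild type groups spanned 94.4 to 105.3 and 104.3 to 125.3.

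**Figure D3:**
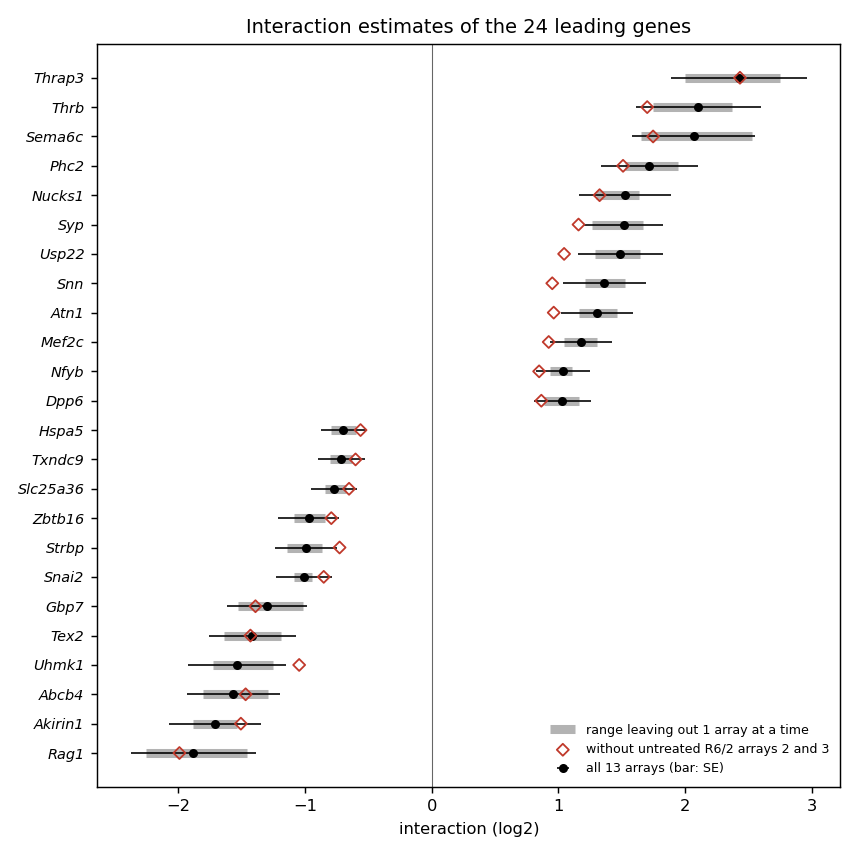
Interaction (log2, x axis) of the 12 genes with the smallest p in each direction: points are estimates from all 13 arrays with their SE, grey bands the range when 1 array at a time is left out, and open diamonds the estimate without untreated R6/2 arrays 2 and 3. All 24 keep their sign, and the diamonds lie nearer to 0 than the points except for Thrap3, Gbp7, Tex2 and Rag1.

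The 89 probe sets with opposite directions and no overlap belonged, where 1 symbol was annotated, to 82 genes. The 50 that were higher in treated R6/2 and lower in treated wild type had a median treatment effect of 0.53 in R6/2 and -0.37 in wild type. In 26 of them the R6/2 effect was 0.5 log2 or more, and in 18 the wild type effect was that large downward. They were brighter than average, with a median signal of 148.1 against 103.2 over all tested probe sets. Untreated R6/2 array 3 was the lowest of its group in 38 of the 50, array 2 in 7, array 4 in 4 and array 1 in 1. The same count over all tested probe sets was not made, so these numbers are not shown to be particular to the class. Array 3 also had the largest residual SD of all arrays, at 0.3805. Without arrays 2 and 3 the median R6/2 effect of these 50 was 0.29, and the part of those arrays in the pattern was not tested further.

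The 39 probe sets in the reverse direction had smaller effects, with medians of -0.38 in R6/2 and 0.27 in wild type. In this class 7 reached 0.5 log2 in R6/2 and 4 in wild type. Array 3 was the highest untreated R6/2 array in 30 of 39, again without a count over all tested probe sets to set beside it. Without untreated R6/2 arrays 2 and 3 their median R6/2 effect was -0.27. The division into 50 and 39 depends on how arrays are scaled: with array medians aligned it was 56 and 18, and 48 of the 89 probe sets were found again. With quantile normalization it was 45 and 44, with 66 found again.

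In the class that was higher in treated R6/2, untreated R6/2 lay below untreated wild type in 50 of 50 probe sets (median -0.68), and treated R6/2 lay below treated wild type in 8 (median 0.22). This difference uses the same arrays as the choice of the class and is given as a description. Mean treated R6/2 signal also lay below that of untreated wild type in 39 of the 50, with a median difference of -0.20. In the 39 of the reverse class, untreated R6/2 was above untreated wild type in every case (median 0.49), and treated R6/2 was below treated wild type in 31 (median -0.24).

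A second probe set of the same gene offers a check that the choice of the 89 did not use. It is read on the same arrays, so it cannot check an effect of outlying arrays. Of the genes of the 89, 26 had 35 other tested probe sets, and 23 of these (65.7%) had an interaction of the same sign. For all probe sets with an unadjusted interaction p under 0.05, this held for 61.3% of 413 pairings with another of the same gene. It held for 55.1% of all 1226 pairs of tested probe sets of 1 gene, from 925 genes. Each pair counts once in the 1226, but can enter the 413 from either side. The 65.7% is thus close to the share for probe sets with a low p. None of the 35 was itself without overlap in the same opposite directions. Their median interaction in the direction of the chosen probe set was 0.20, against 0.83 for the chosen ones, and it was 0.17 for the genes with a low p. Outside the 89, Camk2a, the calcium-dependent kinase of excitatory synapses, had 2.33 on each of its 2 probe sets, with an SE of 1.41 on the second. The first gave 1.13 without untreated R6/2 arrays 2 and 3. Grik5, a kainate receptor subunit, had 0.99 and -0.75.

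To show the sequence around the start of genes that moved in each direction, promoters (250 bases before to 50 after the annotated start) are given for 2 genes of each class, from RefSeq on GRCm38.p6. Capitals mark matches, on either strand, to the CCAAT box bound by NF-Y (CCAAT), the E-box (CACGTG), the cAMP response element (TGACGTCA) and the GC box bound by Sp1 (GGGCGG). The Syp window is chrX:7638330-7638629 on the plus strand and that of Nfyb is chr10:82764092-82764391 on the minus strand. The window of Slc25a36 is chr9:97110992-97111291 and that of Txndc9 is chr1:37997159-37997458, both on the minus strand.
Syp: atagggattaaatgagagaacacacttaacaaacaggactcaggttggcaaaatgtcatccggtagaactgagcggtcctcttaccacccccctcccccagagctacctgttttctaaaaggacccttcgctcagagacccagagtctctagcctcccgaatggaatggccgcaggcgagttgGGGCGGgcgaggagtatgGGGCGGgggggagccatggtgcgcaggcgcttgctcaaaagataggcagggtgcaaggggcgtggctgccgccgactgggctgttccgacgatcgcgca
Nfyb: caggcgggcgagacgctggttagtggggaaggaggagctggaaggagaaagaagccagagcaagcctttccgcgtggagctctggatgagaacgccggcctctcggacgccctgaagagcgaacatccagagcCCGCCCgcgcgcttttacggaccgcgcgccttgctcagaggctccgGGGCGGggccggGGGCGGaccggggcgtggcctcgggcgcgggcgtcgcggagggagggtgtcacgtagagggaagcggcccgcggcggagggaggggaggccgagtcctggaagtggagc
Slc25a36: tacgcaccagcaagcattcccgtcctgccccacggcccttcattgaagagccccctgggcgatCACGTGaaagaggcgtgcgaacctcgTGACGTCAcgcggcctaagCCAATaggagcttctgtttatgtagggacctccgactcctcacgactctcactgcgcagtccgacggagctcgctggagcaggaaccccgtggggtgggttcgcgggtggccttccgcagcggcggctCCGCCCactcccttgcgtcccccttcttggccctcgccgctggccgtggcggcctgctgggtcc
Txndc9: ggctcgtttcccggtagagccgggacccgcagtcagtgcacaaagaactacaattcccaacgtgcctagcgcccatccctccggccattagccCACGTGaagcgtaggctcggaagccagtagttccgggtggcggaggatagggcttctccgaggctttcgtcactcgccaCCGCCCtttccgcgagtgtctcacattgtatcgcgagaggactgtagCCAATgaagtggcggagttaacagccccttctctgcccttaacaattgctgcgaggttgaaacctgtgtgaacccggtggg
The Syp and Nfyb windows hold GC boxes alone (2 and 3), and the other two hold a CCAAT box, an E-box and a GC box each, with a cAMP response element in Slc25a36. Over the classes, CCAAT was found in 18 of 50 promoters (36%) of 36 genes that were higher in treated R6/2 and in 20 of 40 promoters (50%) of 29 genes of the reverse class, against 37.2% of the promoters of tested genes and 37.4% of all promoters in the table. For CACGTG the shares were 10%, 12.5%, 10.6% and 7.15%, for TGACGTCA 4%, 10%, 2.95% and 1.79%, and for GGGCGG 66%, 67.5%, 62.8% and 35.7%, in the same order. These are matches of letters and show no binding.

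The list of drug targets also holds receptors, transporters and synthesis enzymes of the transmitters that the drugs affect. Among its 10 tested genes 1 interaction was positive and none negative with an unadjusted p under 0.05. Over all probe sets 7.22% and 6.24% were positive and negative, so the counts are near the background. Their median was 0.23 against -0.02 over all probe sets. When untreated R6/2 arrays 2 and 3 were left out, none of the 10 was counted and the median was 0.10. Chrm1, the M1 muscarinic acetylcholine receptor of forebrain neurons, read 208.1, 194.7 and 173.4 in untreated and 141.7, 177.8 and 172.6 in treated wild type, and 100, 47.8, 51.5 and 108.9 in untreated and 103.0, 129.8 and 128.0 in treated R6/2. The groups overlapped in both genotypes, and the lowest R6/2 values are those of arrays 2 and 3. Its interaction of 0.96 ± 0.37 was 0.43 without them. Ache, the enzyme that tacrine inhibits, was at 0.55 ± 0.30, and at 0.17 without those arrays. Maoa, the enzyme that moclobemide inhibits, was at -0.17 ± 0.25, and at 0.03 without them. Th, which makes the precursor of dopamine and noradrenaline, was at 0.58 ± 0.30 and at 0.36 without them. Chrna7, a nicotinic receptor subunit, was at 0.64 ± 0.39 and Htr1a, a serotonin receptor, at 0.36 ± 0.36. The serotonin transporter Slc6a4 was at -0.34 ± 0.37, and Ddc, Htr3a and Slc6a2 were between -0.19 and 0.10. Without those arrays Ddc was at 0.04, Htr3a at -0.89 and Slc6a2 at 0.03.

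Of the 6 tested genes of creatine synthesis, uptake and phosphorylation, 2 had a negative and none a positive interaction with an unadjusted p under 0.05, beside 6.24% negative and 7.22% positive over all probe sets. The median was -0.27, and -0.11 without untreated R6/2 arrays 2 and 3, where 2 were again negative. One of the 2, Gamt, has the opposite sign on its other tested probe set. Gamt, which makes creatine by methylation, read 141.0, 123.5 and 107.0 in untreated and 172.0, 172.7 and 176.1 in treated wild type, and 151.6 to 188.6 in untreated and 141.9 to 188.0 in treated R6/2. Untreated wild type was thus the low group. Its interaction was -0.54 ± 0.20, but 0.61 on a second tested probe set. Ckm, the muscle form of creatine kinase, was dim (13.6 to 50.3 over all arrays) at -1.13 ± 0.52. Gatm, which catalyses the first step of creatine synthesis, was at -0.37 ± 0.20, and at -0.17 without those arrays, where its R6/2 effect turned from -0.11 to 0.09. The mitochondrial kinase Ckmt1 was at -0.18 ± 0.21 (-0.05 without them), the transporter Slc6a8 at -0.04 ± 0.23 and the brain kinase Ckb at 0.31 ± 0.31 (-0.05 without them).

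Among 36 lists of pathways and cell type markers, that of glutamate and GABA transmission had the highest median interaction of those with at least 5 tested genes. Of 18 genes of glutamate and GABA transmission, 5 had a positive and 2 a negative interaction with an unadjusted p under 0.05, beside 7.22% and 6.24% over all probe sets, and 0 passed adjustment. The list's median was 0.49 against -0.02 over all probe sets. Without untreated R6/2 arrays 2 and 3 the counts were 2 and 2, beside 4.55% and 4.31% over all probe sets, and the median was 0.14. Grik5 read 344.9, 398.5 and 355.2 in untreated and 284.2, 297.8 and 296.8 in treated wild type, and 260.8, 142.0, 104.8 and 217.0 in untreated and 257.4, 314.8 and 244.2 in treated R6/2. Its wild type groups were apart and its R6/2 groups overlapped. The Grik5 interaction of 0.99 was 0.50 without those arrays, with an R6/2 effect of 0.19 in place of 0.67. Gad1, which makes GABA, went the other way at -0.48 ± 0.15, with 1199.6, 1167.3 and 1099.4 in untreated and 1454.2, 1433.5 and 1327.7 in treated wild type, and 958.6 to 1203.0 in untreated and 891.8 to 990.4 in treated R6/2. Gad1 is thus separated by treatment in wild type and overlaps in R6/2.

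Of 20 pan-neuronal genes 4 were positive and 1 negative by the same measure (7.22% and 6.24% over all probe sets), with a median of 0.18. Leaving out untreated R6/2 arrays 2 and 3 gave 5 and 1 (4.55% and 4.31%), with a median of 0.11. Next to Syp, the member with the smallest p was Chgb, chromogranin B of dense core vesicles, at -0.78 ± 0.24, and at -0.51 without those arrays. Of 12 genes of cortex and hippocampus 2 were positive and 1 negative, with a median of 0.31, against 1 and 1 with a median of 0.15 without those arrays. Camk2a was at 2.33 ± 0.79, and at 1.13 without untreated R6/2 arrays 2 and 3, where it read 8.4 and 9.0 against 58.7 and 36.0 on the other untreated R6/2 arrays. Tbr1, a transcription factor of deep cortical layers, was at -0.71 ± 0.27. Of 32 cytoskeleton and transport genes 7 were positive and 1 negative, and 5 and 0 without those arrays, though the list's median was 0.04. They include the kinesin motors Kif5a, at 1.73 ± 0.51 and 1.28 on a second probe set, and Kif1a, at 1.2 ± 0.35. Kif5a read 557.3, 598.2 and 491.9 in untreated and 204.2, 386.2 and 290.9 in treated wild type, and 282.9, 176.8, 88.2 and 341.8 in untreated and 314.7, 322.8 and 383.8 in treated R6/2, where the groups overlapped. Without untreated R6/2 arrays 2 and 3 its interaction was 1.07 and its R6/2 effect 0.12 in place of 0.78.

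Of 17 circadian clock genes 3 were positive and none negative, beside 7.22% and 6.24% over all probe sets, with a median of 0.15. The counts were 1 and 0 without untreated R6/2 arrays 2 and 3, with a median of 0.08. Cry2, a repressor in the clock, read 193.7, 204.8 and 200.1 in untreated and 82.6, 162.7 and 134.4 in treated wild type. In R6/2 it read 108.8, 72.8, 48.6 and 137.7 untreated and 141.4, 157.6 and 140.7 treated. It was without overlap in both genotypes and had an interaction of 1.49 ± 0.42, or 0.97 without untreated R6/2 arrays 2 and 3. Tef, a clock output factor, was at 0.78 ± 0.29. Of 28 genes of transcription and chromatin 5 were positive and 3 negative (4 and 3 without those arrays), with a median of -0.16, of opposite sign to Nfyb. Bmi1, a Polycomb protein, was at -0.82 ± 0.28.

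Of 31 heat shock proteins and chaperones 0 were positive and 3 negative, beside 7.22% and 6.24% over all probe sets, with a median of -0.13. Without untreated R6/2 arrays 2 and 3 the counts were 1 and 1 and the median -0.05, so these counts are not apart from the background. Besides Hspa5 the 3 include Dnaja1, a cytosolic partner of Hsp70, at -0.77 ± 0.28, and at -0.49 without those arrays. Of 43 genes of oxidative phosphorylation 1 was positive and 4 negative (0 and 4 without those arrays), with a median of -0.09. The median was -0.09 for the TCA cycle as well and 0.12 for 15 glycolysis genes, none of which was counted in either direction. Cox7b, a subunit of cytochrome oxidase, read 518.7, 486.1 and 463.2 in untreated and 623.5, 491.0 and 526.5 in treated wild type, and 565.6, 856.5, 845.8 and 611.0 in untreated and 466.0, 491.8 and 461.0 in treated R6/2. The R6/2 groups did not overlap and the wild type ones did. Its interaction was -0.74 ± 0.22, and -0.47 without untreated R6/2 arrays 2 and 3. Of 36 proteasome and ubiquitin genes 2 were positive and 3 negative, among them Psmb5, a catalytic subunit, at 0.76 ± 0.21 and at -0.71 on its second probe set, and Psmb1 at -0.47 ± 0.16 and at -0.01 on its second tested probe set. Of 15 interferon and MHC class I genes none was positive and Gbp7 alone was negative, against 0 and 2 of 14 without those arrays. The 10 tested striatal neuron genes gave 0 positive and 2 negative with a median of -0.06, and 0 and 1 with a median of -0.14 without those arrays.

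**Figure D4:**
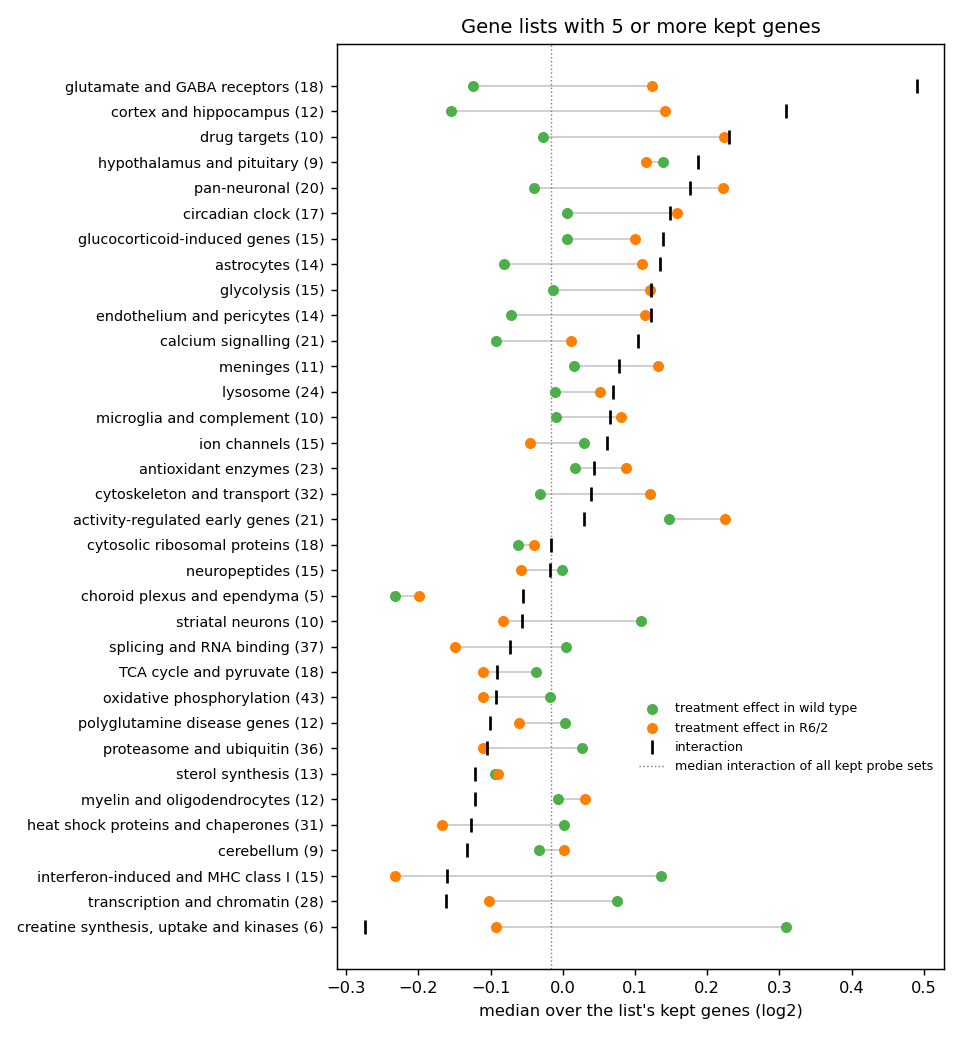
Median log2 over the tested genes of each list with at least 5 tested genes (number in brackets) for the treatment effect in wild type (green), the treatment effect in R6/2 (orange) and the interaction (black tick), with the median interaction of all tested probe sets as a dotted line. Of the lists shown, glutamate and GABA receptors lie highest at 0.49 and the creatine genes lowest at -0.27.

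Markers of other cells were read in the same way. The 3 tested of 14 blood cell genes (Alas2, Hba-a1 and Hbb-b2) all had positive interactions, beside 3606 of all 7453 probe sets. Their median was 1.26, and 0.975 without untreated R6/2 arrays 2 and 3. Alas2, which starts haem synthesis in red cell precursors, read 42.2, 45.6 and 75.7 in untreated and 20, 9.3 and 36.1 in treated wild type, and 27.3, 12.8, 22.8 and 14.4 in untreated and 29.9, 31.6 and 43.0 in treated R6/2, an interaction of 2.38 ± 0.59. The summed signal of the 3 genes was 1979 to 3525 in untreated and 995.2 to 1650 in treated wild type, without overlap, and 904.4 to 1872 in untreated and 927.5 to 2146 in treated R6/2, with overlap. In wild type 21.8% of all probe sets were likewise without overlap. The wild type treatment effect did not pass in limma for Alas2 (adjusted p = 0.318) or Hba-a1 (adjusted p = 0.481). The part of blood cell signal in other genes' interactions was not tested. Of 14 astrocyte genes 3 were positive and 1 negative by an unadjusted p under 0.05, beside 7.22% and 6.24% over all probe sets. The counts were 3 and 0 without untreated R6/2 arrays 2 and 3. Among the genes counted were Agt, angiotensinogen, at 1.03 ± 0.29, and Slc1a2, the main glutamate transporter, at 0.93 ± 0.28. The summed signal of the 14 was 9042 to 9432 in untreated and 9552 to 11450 in treated R6/2. It was 11140 to 11280 in untreated and 11370 to 12890 in treated wild type, so the sum was higher with treatment in both genotypes. Most single genes did not follow the sum in wild type, where 5 of the 14 were higher with treatment (median effect -0.08). In R6/2 10 of the 14 were higher (median effect 0.11). For 10 microglia and complement genes 0 were positive and 0 negative, beside the same shares, and 0 and 0 without untreated R6/2 arrays 2 and 3.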

How the data were processed

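Signals of 13 arrays were used as the authors deposited them, as intensity values on a linear scale. Array means after trimming were 100.047 to 100.128, and the software that made the values is not given in the sources used here. The 66 control rows were left out, values under 3.1 (the 10th percentile) were set to 3.1, log2 was taken, and the 7453 of 12422 gene probe sets with a mean at or above the 40th percentile (signal 24.9) were kept. Of the 12422, 10833 had 1 gene symbol, 396 several and 1193 none. There is no read depth, and precision is set by how many arrays a group has. Group means were fitted in limma 3.58.1 (R 4.3.3) with an intensity trend, and p-values were adjusted by Benjamini-Hochberg over the kept probe sets. The fit was tested on simulated data. Genes were picked as the 12 with the smallest p in each direction, 6 opposite movers in each direction, the 2 with the smallest p in each list, and all genes of the drug target and creatine lists, each list gene by its brightest probe set. The text does not describe every list or name every list gene picked in this way. Members and lists were chosen with earlier results of these data known. Alternatives covered the floor, scaling, filter, trend, weights, array lot and omitted arrays.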

Additional observations from a re-analysis of the deposited data

Results flagged for a closer look

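Each of these genes, on 1 probe set, moved in opposite directions in the 2 genotypes with no overlap of treated and untreated arrays in either. The difference itself was tested as the interaction in limma, where each had an adjusted p of 0.305 and did not pass. On the log2 scale the positive interactions were Thrap3 2.42, Alas2 2.38, Sema6c 2.07, Gng4 (a G protein gamma subunit) 2.04, Vamp2 1.75, Arnt (partner of the dioxin and hypoxia receptors) 1.75, Nucks1 1.53, Syp 1.52, Usp22 1.49, Snn 1.36, Atn1 1.31, Mef2c 1.18, Nfyb 1.04 and Dpp6 1.03. The negative ones were Akirin1 -1.71, Abcb4 -1.56, S1pr1 -1.21, Rabggtb -0.81, Slc25a36 -0.77 and Txndc9 -0.71. Brighter tested probe sets of Thrap3, Nucks1, Vamp2 and Akirin1 gave 0.08, -0.26, 0.26 and 0.20. The other probe sets of Mef2c gave 0.36, 0.95 and 0.38. None of these had opposite directions without overlap in both genotypes.

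Nucks1 on untreated R6/2 array 2 had a signal of 16.4, far below the other arrays of its group at 30.0, 32.3 and 31.0. Chance alone passes the cutoff used for this flag in about 1 of 20 groups. All leading genes and the opposite movers picked with them were searched, so a flag of this kind can arise by chance.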

How the results depend on the processing

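The interaction gave 0 calls in limma under all 26 alternatives, with a smallest adjusted p of 0.0558 to 0.495 when 1 array was left out. Its count with an unadjusted p under 0.05 was 660 without untreated R6/2 arrays 2 and 3, and 713 to 1338 with 1 array left out. Calls in R6/2 were 1 with no filter, 1 without untreated R6/2 arrays 2 and 3, and 0 to 116 with 1 array left out, 116 being without untreated R6/2 array 1. Calls in wild type were 120 with array weights, 8 without untreated R6/2 arrays 2 and 3, 6 with group weights, 2 with log2(value + 16), 2 with no filter, 1 with no intensity trend and 0 to 6 with 1 array left out. Opposite movers without overlap numbered 139 without untreated R6/2 arrays 2 and 3, 98 to 197 with 1 array left out, 64 with the filter at the 60th percentile and 111 with none. Same-direction movers numbered 116, 80 to 289, 60 and 95 in the same order. They outnumbered the opposite ones without treated wild type array 1 (152 against 112), untreated R6/2 array 1 (214 against 161) and treated R6/2 array 2 (289 against 153). Fewer arrays in a group make non-overlap easier to reach. For the other moves the cause was not tested.

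Signs turned for Ckb (-0.0526), Ddc (0.0418) and Maoa (0.031) without untreated R6/2 arrays 2 and 3, and for Htr3a (0.0529) and Slc6a2 (-0.048) with array weights. With 1 array left out Htr3a ranged from -0.564 to 0.275, Slc6a2 from -0.312 to 0.624 and Slc6a8 from -0.135 to 0.127. All other named genes kept their sign. Akirin1 fell below the filter without arrays 2 and 3. The array lot could not be fitted as a random block, since 1 lot alone is shared by 2 arrays, and as a fixed term, chosen after seeing the data, it gave 947 probe sets with an unadjusted interaction p under 0.05 in place of 1003. The counts of each list without untreated R6/2 arrays 2 and 3 were also added after seeing the data. No paired analysis was possible because the labels give no shared replicate numbers. The signal of dim probe sets such as Akirin1 and Abcb4 limits their precision.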

Other observations

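Other genes with opposite directions and no overlap in either genotype are given here by name, chosen after their values were seen. Syngr1, which encodes synaptogyrin 1 of synaptic vesicles, read 335.7, 276.7 and 270.0 in untreated and 175.4, 227.5 and 189.0 in treated wild type, and 196.8, 147.4, 77.0 and 164.1 in untreated and 214.4, 249.7 and 231.9 in treated R6/2, an interaction of 1.32. Sncb, which encodes beta-synuclein of presynaptic terminals, had an interaction of 1.05, with 381.4 and 362.6 on untreated R6/2 arrays 2 and 3 against 752.7 and 655.3 on the others. Zfp574, a zinc finger gene, had the largest interaction of the 50 at 2.49, with 11.2 and 8.4 on those arrays against 48.5 and 39.2. Its other tested probe set was at 0.07. In the reverse class, Dnajb11, a chaperone of the endoplasmic reticulum that works with BiP, had an interaction of -1.0. Gria2, a glutamate receptor subunit, had -0.61, and -0.59 and -0.32 on its other tested probe sets.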
